A study of Homo sapiens with 8 samples.

Results

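The miR-183, miR-96 and miR-182 cluster is a set of 3 microRNA hairpins made as a single long transcript. Its members were taken by name, as every row of the deposited table that is an arm of miR-183, miR-96 or miR-182. This gave 6 mature arms of 594 miRNAs, namely the 5p and 3p arm of each hairpin; miR-96-3p meets the rule beside the other 5 arms. Small RNAs were sequenced from H1 cells, an established line of human embryonic stem cells, in 4 groups of 2 libraries. The tested groups were cells homozygous for the Dicer substitution S1344L, cells hemizygous for S1344L (the labels do not give the other allele) and Dicer-null cells, and the control was wild-type H1 cells. All groups share the H1 background, and the S1344L lines were engineered with CRISPR-Cas9. The labels do not say how many clones each genotype comprises.

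A miRNA gene is transcribed as a long RNA, which Drosha trims to a hairpin. Dicer then cuts off the loop, leaving a 5p arm from the left strand and a 3p arm from the right strand, and usually only the more abundant arm, the guide, is kept by an Argonaute protein. S1344L is a recurrent Dicer substitution in tumours. The cluster is known from sensory organs, where changes in the miR-96 seed cause hearing loss, and it is also expressed in pluripotent cells and in many carcinomas. The seed, bases 2 to 8 of the arm, is the stretch that pairs with target messages.

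The sequences of the 3 guides are shown because they decide which arms can share targets, with the seed in capitals. They come from RefSeq (GRCh38.p14), as does miR-1271-5p, which is encoded on chromosome 5 and was the 1 other miRNA of the table with bases 2 to 7 equal to those of a cluster guide.
miR-183-5p: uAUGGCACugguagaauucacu
miR-96-5p: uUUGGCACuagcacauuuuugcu
miR-182-5p: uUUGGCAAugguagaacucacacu
miR-1271-5p: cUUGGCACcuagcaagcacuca
The guides miR-96-5p and miR-182-5p are identical at 6 of the 7 seed bases, miR-183-5p and miR-96-5p at 6 of 7, and miR-183-5p and miR-182-5p at 5 of 7. miR-1271-5p is identical to miR-96-5p at 7 of 7. Over their whole length miR-183-5p and miR-182-5p are the closest pair of guides, with 18 of 22 bases identical from the 5′ end, against 13 of 22 for miR-183-5p and miR-96-5p and 12 of 23 for miR-96-5p and miR-182-5p.

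The 3p arms, which are the minor product of these hairpins in wild-type cells, carry unrelated seeds.
miR-183-3p: gUGAAUUAccgaagggccauaa
miR-96-3p: aAUCAUGUgcagugccaauaug
miR-182-3p: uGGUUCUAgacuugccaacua
The MIR182 and MIR96 hairpins are shown with both arms in capitals and the flanks and loop in lower case, since the results turn on which arm is recovered.
MIR182: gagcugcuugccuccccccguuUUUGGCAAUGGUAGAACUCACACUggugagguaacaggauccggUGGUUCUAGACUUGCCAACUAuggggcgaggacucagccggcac
MIR96: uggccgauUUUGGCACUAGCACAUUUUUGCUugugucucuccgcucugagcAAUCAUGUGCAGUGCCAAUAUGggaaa
The arms of MIR182 and MIR96 are each separated by 20 bases and those of MIR183 by 17. Among the 147 other hairpins of the table with both arms in RefSeq the median was 16 bases, the range was 8 to 35, and 12 had at least 20.

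The 3 genes lie on the minus strand of chromosome 7 in GRCh38 (hg38), within 4632 bases, in the order MIR183 (chr7:129774905-129775014), MIR96 (chr7:129774692-129774769) and MIR182 (chr7:129770383-129770492). A gap of 135 bases parts MIR183 from MIR96 and 4199 bases part MIR96 from MIR182. GENCODE release 29 annotates no other gene over the interval. The nearest protein-coding genes are NRF1 on the plus strand, ending at 129757082, and UBE2H on the minus strand, starting at 129830732.

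Levels are given as RPM, the authors' read counts scaled by a denominator of each library, with the 0.5 of a read that the authors added. Reads assigned to miRNAs lay between 1000101 and 2289926 in the S1344L libraries and were 165317 and 137655 in the null, against 2680973 and 2725756 in the wild-type libraries. The denominators, between 751354 and 1399486, are not these totals, and the miRNA reads came to 0.118 and 0.183 of the denominator in the null libraries against 2.09 and 2.33 in the wild-type libraries. Hemizygous replicate 1 stood apart, with 0.729 reads for each unit of denominator and a median miRNA 1.93 log2 units below replicate 2. Pluripotency miRNAs (miR-302, miR-367 and miR-371 to miR-373, 9 of 9 in the table) summed to 376506 to 1222300 RPM in the S1344L libraries, 62094 and 84211 RPM in the null and 837554 and 897980 RPM in the wild type. The fibroblast and mesenchymal list (3 of 6 measured) summed to at most 410 RPM and the mesoderm and endoderm list (4 of 6) to at most 1340 RPM in any library, while the neural list (3 of 4), nearly all of it miR-124-3p, reached 27044 RPM in a homozygous and 16754 RPM in a wild-type library. The part of these lists in the results below was not tested. In bulk RNA, fewer cells of a type and less RNA per cell cannot be told apart.

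In wild-type cells nearly all reads of the cluster were 5p guides, and miR-96-5p was the most abundant. Ranked by mean wild-type RPM, miR-96-5p was 35th, miR-182-5p 76th and miR-183-5p 93rd of the 594 miRNAs, and the 3p arms lay at ranks 333 (miR-183-3p), 346 (miR-182-3p) and 440 (miR-96-3p). The 6 arms together held 0.286% and 0.251% of the miRNA reads of the homozygous libraries, 0.308% and 0.267% of the hemizygous, 0.434% and 0.434% of the null, against 1.005% and 0.892% of the wild-type. The 3 guides made up 71.1% and 73.0% of the cluster's reads in homozygous cells, 81.8% and 74.8% in hemizygous cells and 96.1% and 93.7% in null cells, against 98.3% and 97.7% in wild-type cells. The cluster's share of miRNA reads was thus lower in every mutant library, and the 3p part of its reads was larger in the S1344L libraries than in any other.

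**Figure D1:**
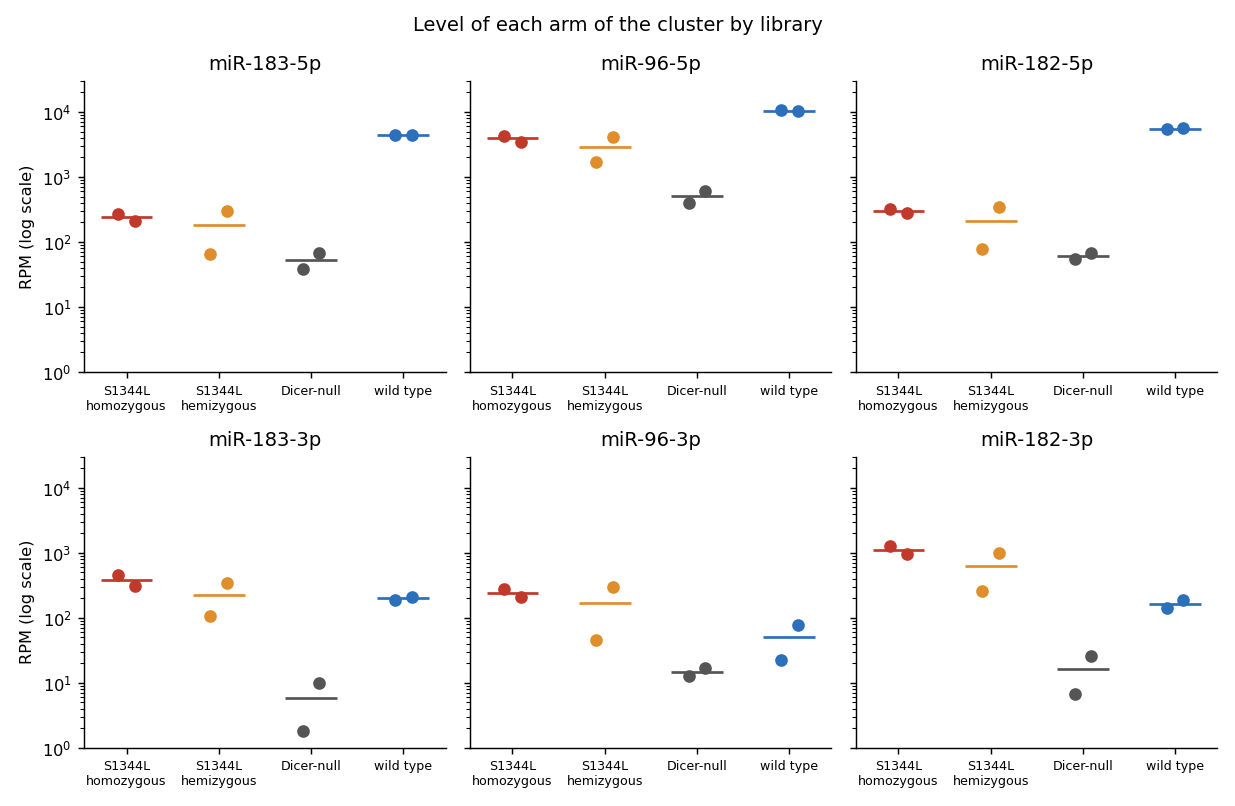
RPM (log scale) of each arm in each library, with 1 panel per arm; points are libraries and bars are group means of 2. The miR-183-5p and miR-182-5p points of all mutant groups lie far below the wild type, miR-96-5p keeps between 1689 and 4345 RPM in the S1344L libraries, and the 3p arms reach their lowest values in null cells.

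The guides miR-183-5p and miR-182-5p fell in all 3 mutant groups, and miR-96-5p was lower by a smaller amount. On the deposited scale over all 8 libraries, miR-96-5p passed the test in null cells only. miR-183-5p, a guide with roles in hair cells and in carcinoma, had 272 and 207 RPM in the homozygous libraries, 65.9 and 305 RPM in the hemizygous, 38.2 and 67.2 RPM in the null, against 4395 and 4471 RPM in the wild-type libraries. miR-182-5p, which in mammals represses FOXO transcripts, had 319 and 281 RPM in the homozygous libraries, 79.1 and 343 RPM in the hemizygous, 54.7 and 68.5 RPM in the null, against 5532 and 5598 RPM in the wild-type libraries. For both arms each mutant library was below both wild-type libraries. miR-96-5p, the arm whose seed is altered in inherited deafness, had 4345 and 3511 RPM in the homozygous libraries, 1689 and 4189 RPM in the hemizygous, 401 and 612 RPM in the null, against 10717 and 10261 RPM in the wild-type libraries. It too was lower in every mutant library, and in the S1344L libraries it stayed above the other guides. Without overlap, 43.3%, 43.9% and 90.2% of all miRNAs were lower than wild type in homozygous, hemizygous and null cells.

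Against wild type, 4 of the 6 arms passed limma's test (Benjamini-Hochberg adjusted p under 0.05 over the 594 miRNAs) in homozygous cells, where 32.2% of all miRNAs passed. miR-182-5p fell by 4.21 on the log2 scale (± 0.94 SE, limma adjusted p = 0.000141, n = 2 each), an 18.5-fold lower level. miR-183-5p fell by 4.22 (± 0.95, limma adjusted p = 0.000157), 18.6-fold. Their means in homozygous cells were 5.39% and 5.40% of the wild-type means. miR-96-5p had a log2 fold change of -1.42 ± 0.85 (limma adjusted p = 0.215) and 37.5% of the wild-type mean, with libraries that did not overlap. With only the 4 libraries compared it passed as lower (-1.42, limma adjusted p = 6.63e-05), in a fit that passed 372 miRNAs. It also passed with own-read, median-ratio and quantile scaling (limma adjusted p at most 0.00901). On the deposited scale over all 8 libraries, 2 of the 3 guides passed as lower, where 48.9% of all 5p arms did.

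Among the 224 other 5p arms the median log2 fold change in homozygous cells was -2.24, and 109 passed as lower and 1 as higher. Of these, 30 had a more negative value than miR-182-5p, 29 than miR-183-5p and 143 than miR-96-5p. The cluster's guides therefore lay on both sides of the median 5p arm. All 3 begin with U. Of the 82 other matched 5p arms that begin with U, 43 passed as lower (median -2.38), and of the 118 that begin with another base, 57 did (median -2.17).

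**Figure D2:**
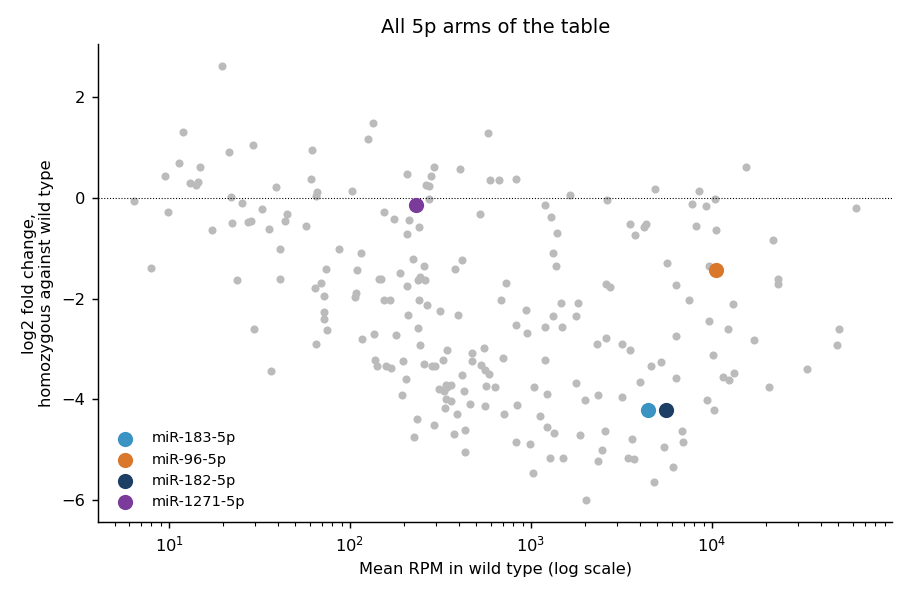
Each point is a 5p arm of the table, by mean wild-type RPM (log scale) and by its log2 fold change in homozygous S1344L cells against wild type. miR-183-5p and miR-182-5p sit at about -4.2 beside each other, miR-96-5p at -1.42 although its wild-type level is higher, and miR-1271-5p close to 0.

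The 3p arms were higher, not lower, in homozygous cells, and 2 of the 3 passed the test. miR-182-3p had 1277 and 960 RPM in the homozygous libraries, 258 and 996 RPM in the hemizygous, 6.79 and 26.0 RPM in the null, against 142 and 185 RPM in the wild-type libraries. miR-96-3p had 275 and 211 RPM in the homozygous libraries, 44.8 and 295 RPM in the hemizygous, 12.5 and 16.6 RPM in the null, against 22.2 and 78.3 RPM in the wild-type libraries. miR-183-3p had 455 and 312 RPM in the homozygous libraries, 106 and 339 RPM in the hemizygous, 1.79 and 9.98 RPM in the null (2 and 7 reads, where a count of 0 allows up to 3 reads), against 186 and 210 RPM in the wild-type libraries. Every homozygous library was above both wild-type libraries for all 3 arms, every null library was below both, and the hemizygous libraries overlapped the wild-type pair for miR-96-3p (1 between them and 1 above) and miR-183-3p (1 below and 1 above). Hemizygous replicate 1 was below replicate 2 for each arm. With the guides, the libraries of all 6 arms did not overlap between homozygous and wild-type cells, the guides being lower and the 3p arms higher. Of all miRNAs, 43.3% were lower and 38.2% were higher without overlap.

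miR-182-3p rose in homozygous cells by a log2 fold change of 2.76 ± 0.97 (SE, limma adjusted p = 0.0165), 6.79-fold. miR-96-3p rose by 2.50 ± 1.00 (limma adjusted p = 0.0411), 5.64-fold, against an uneven wild-type pair; it was 1.61 without wild-type replicate 1 and 3.38 without wild-type replicate 2. miR-183-3p had 0.93 ± 0.99 (limma adjusted p = 0.568), and passed as higher with median-ratio factors (1.33, adjusted p = 0.0452), upper-quartile scaling (1.82), quantile normalization (1.77) and only the 4 libraries compared (0.93, adjusted p = 0.0319). On the deposited scale over all libraries, 2 of 3 passed as higher, where 18.7% of all 3p arms did, and the 297 other 3p arms had a median of 0.67. Without either homozygous or either wild-type library the calls of miR-182-3p and miR-96-3p were lost, with limma adjusted p between 0.130 and 0.244 for miR-182-3p and between 0.0839 and 0.563 for miR-96-3p; that of miR-96-3p was also lost without either null library (adjusted p at most 0.0574). Without homozygous replicate 2, miR-183-5p had a limma adjusted p of 0.0502, and miR-96-5p passed as lower without either hemizygous library (-1.42, adjusted p at most 0.00524).

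**Figure D3:**
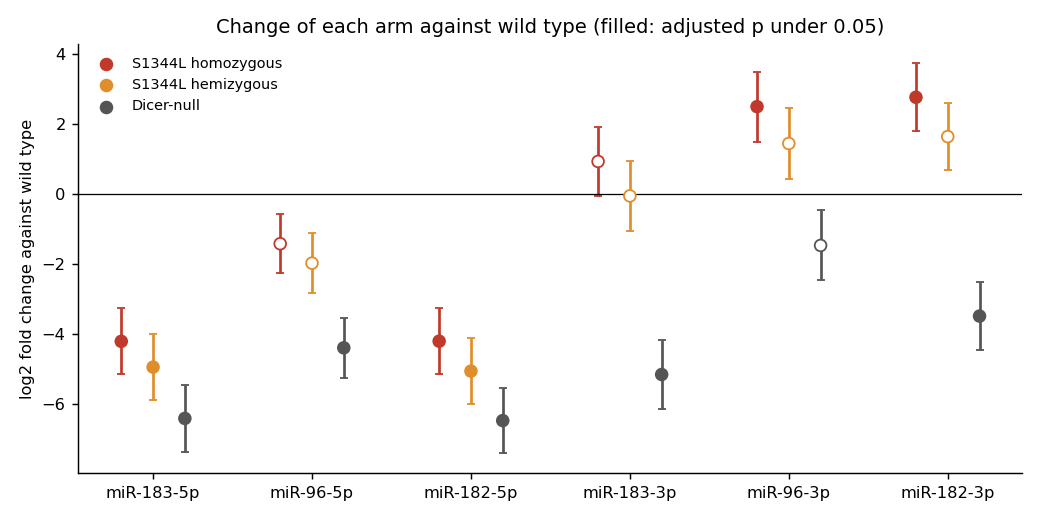
Log2 fold change against wild type of each arm in each mutant group, with bars of 1 standard error from limma; filled points passed the adjusted threshold of 0.05. In both S1344L groups miR-183-5p and miR-182-5p are filled and lie below -4, miR-96-5p is open, and of the 3p arms miR-96-3p and miR-182-3p are filled in homozygous cells.

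In hemizygous cells the same 2 guides fell, with 2 of 6 arms past limma's threshold, where 34.7% of all miRNAs passed. Of the 224 other 5p arms 136 passed as lower, with a median of -2.91. Of these other 5p arms, 23 had a more negative value than miR-182-5p, 23 than miR-183-5p and 151 than miR-96-5p. miR-182-5p fell by 5.07 on the log2 scale (± 0.94, limma adjusted p = 2.03e-06) and miR-183-5p fell by 4.95 (± 0.95, limma adjusted p = 3.69e-06). miR-96-5p had -1.98 ± 0.85 (limma adjusted p = 0.0551), which passed with either hemizygous library left out (-1.32 without replicate 1 and -2.63 without replicate 2). The 3p arms had 1.64 (miR-182-3p), 1.44 (miR-96-3p) and -0.06 (miR-183-3p), and none of these passed. Without hemizygous replicate 1, whose miRNAs are low as a whole, miR-182-3p was 2.61 higher (limma adjusted p = 0.0138) and miR-96-3p 2.79 higher (limma adjusted p = 0.0127), whereas without hemizygous replicate 2 they were at 0.67 and 0.095 and did not pass. Both also passed as higher under the 4 other scalings, at 2.36 to 3.44 (miR-182-3p) and 2.13 to 3.17 (miR-96-3p).

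Between hemizygous and homozygous cells none of the 6 arms passed, and limma passed 0 of the 594 miRNAs (0%), with 7 at an unadjusted p under 0.05; limma with voom weights also passed 0, with 12 at an unadjusted p under 0.05. The log2 difference, hemizygous minus homozygous, was between -1.12 (miR-182-3p, 95% interval -3.02 to 0.77) and -0.55 (miR-96-5p, -2.22 to 1.11). The intervals of all 6 arms include 0, and the groups overlapped for each, where 1.18% of all miRNAs were higher and 21.4% lower without overlap. The values rest on the low hemizygous library: without it, miR-182-5p, miR-183-5p, miR-96-5p and miR-96-3p were between 0.10 and 0.36 higher in hemizygous cells, and without hemizygous replicate 2 limma passed 5 of the 6 as lower, in a fit that passed 433 of the 594 miRNAs in either direction.

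In Dicer-null cells 5 of 6 arms passed as lower than wild type, where 87.2% of all miRNAs did. miR-182-5p fell by 6.48 (limma adjusted p = 1.09e-10), miR-183-5p fell by 6.42 (limma adjusted p = 2.14e-10) and miR-96-5p fell by 4.40 (limma adjusted p = 6.25e-07), which left 1.11%, 1.19% and 4.82% of the wild-type means. miR-183-3p fell by 5.17 and miR-182-3p fell by 3.49, while miR-96-3p had -1.47 ± 1.00 (limma adjusted p = 0.153). The directions of miR-182-3p, miR-96-3p and miR-96-5p turn under other scalings: scaled to each library's own miRNA reads, miR-182-3p was at 0.29 and miR-96-3p at 2.30, and miR-96-5p was at 0.11 with median-ratio factors. The 4 other scalings moved the median of all miRNAs in null cells from -4.49 to between -0.84 and 0.24. Under them miR-96-3p passed as higher than wild type (limma adjusted p at most 0.00921). miR-182-3p did so with upper-quartile scaling only (limma adjusted p = 0.0155). miR-183-3p lost its call with median-ratio factors (-1.002), upper-quartile scaling (-0.52) and quantile normalization (-1.10), and miR-96-5p with own-read scaling (-0.50). The falls of miR-182-5p and miR-183-5p held under all scalings tried, at -1.44 or lower.

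Against null cells all 6 arms passed as higher in homozygous cells on the deposited scale, where 76.3% of all miRNAs did. In hemizygous cells all 6 differences were positive and 4 passed, where 63.8% of all miRNAs passed as higher. The log2 difference, homozygous minus null, was 6.26 ± 0.97 in miR-182-3p, 6.09 ± 0.99 in miR-183-3p and 3.97 ± 1.00 in miR-96-3p. It was smaller in the guides miR-96-5p (2.98 ± 0.85), miR-182-5p (2.27 ± 0.94) and miR-183-5p (2.20 ± 0.95). The 297 other 3p arms had a median of 4.86, and 225 of them lay above miR-96-3p. The 224 other 5p arms had a median of 2.18. Of these other arms, 286 3p arms and 118 5p arms passed as higher than null. The homozygous calls of miR-182-5p and miR-183-5p were lost without either homozygous library, without null replicate 1 and without either wild-type library, and that of miR-182-5p also without null replicate 2 (limma adjusted p between 0.0556 and 0.187). Of the hemizygous calls, miR-96-3p lost its own without hemizygous replicate 2 or null replicate 1 and miR-96-5p without null replicate 1, and without hemizygous replicate 1 miR-182-5p (2.47) and miR-183-5p (2.56) passed too. The sign of the guides' differences is set by the scaling: relative to each library's own miRNA reads, miR-96-5p was -0.99, miR-182-5p -1.67 and miR-183-5p -1.73 in homozygous minus null cells, and -0.75, -1.74 and -1.68 in hemizygous minus null cells. The 4 other scalings moved the median of all miRNAs, homozygous minus null, from 3.92 to between 0.24 and 0.36. For hemizygous minus null cells it moved from 2.89 to between 0.13 and 0.20. They thus place an arm relative to the other miRNAs of its library and leave out the lower miRNA total of null libraries. On that relative scale all 3 guides passed as lower than null in both S1344L groups. The limma adjusted p was at most 0.00525 in homozygous and 0.0312 in hemizygous cells.

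The ratio of the 3p to the 5p arm within a hairpin depends on a scaling factor per library only through the pseudocount of 1 RPM, though not so for quantile normalization. It moved toward 3p in all 3 hairpins of both S1344L groups. In miR-182 the 3p arm made up 80.0% and 77.4% of the reads in homozygous cells, 76.6% and 74.4% in hemizygous cells and 10.6% and 27.1% in null cells, against 2.50% and 3.20% in wild-type cells. In miR-183 it made up 62.6% and 60.1% in homozygous cells, 61.7% and 52.7% in hemizygous cells and 3.64% and 12.3% in null cells, against 4.05% and 4.48% in wild-type cells. In miR-96 it made up 5.94% and 5.65% in homozygous cells, 2.57% and 6.57% in hemizygous cells and 2.95% and 2.55% in null cells, against 0.203% and 0.753% in wild-type cells. In S1344L cells the 3p arm thus outnumbered the 5p arm in miR-182 and miR-183, though the 95% Wilson interval of hemizygous replicate 2 for miR-183 reached down to 48.2%, while in miR-96 the 5p arm stayed in the majority in every library. The null shares of miR-182 rest on 85 and 70 reads and those of miR-183 on 55 and 57, and the intervals, here 5.67% to 18.9% and 18.1% to 38.5% for miR-182, cover counting error only.

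On the log2 scale the homozygous shift was 6.97 ± 0.52 (SE) in miR-182 (limma adjusted p = 1.51e-08), 5.15 ± 0.52 in miR-183 (limma adjusted p = 3.95e-07) and 3.92 ± 0.66 in miR-96 (limma adjusted p = 6.06e-05). The miR-96 shift was 3.002 without wild-type replicate 1 and 4.84 without wild-type replicate 2. All 3 shifted to 3p, where 79% of the 186 hairpins with both arms did. The median of the other hairpins was 3.25, and all 3 lay above it. From the largest shift down, each set among the other hairpins ranked 12th (miR-182), 32nd (miR-183) and 64th (miR-96) of 184. In hemizygous cells the shifts were 6.71 (miR-182), 4.90 (miR-183) and 3.42 (miR-96), past the threshold in all 3, where 77.4% of hairpins shifted to 3p and the others had a median of 2.80. The 2 S1344L groups did not differ past the threshold in any of the 3 hairpins, and limma passed 0 of the 186 ratios (0%), with 5 at an unadjusted p under 0.05; the differences, hemizygous minus homozygous, were -0.27 (miR-182, 95% interval -1.38 to 0.84), -0.25 (miR-183, -1.36 to 0.86) and -0.50 (miR-96, -1.90 to 0.91).

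Null cells also carried a shift to 3p in miR-182 (2.99 ± 0.52, limma adjusted p = 0.000448) and miR-96 (2.93 ± 0.66, limma adjusted p = 0.00259), where 27.4% of hairpins did, and miR-183 had 1.26 ± 0.52 (limma adjusted p = 0.0585). The miR-183 value depends on few reads and on the settings: it was 1.98 with a pseudocount of 5 RPM (limma adjusted p = 0.000632), 1.85 without null replicate 1 (adjusted p = 0.0137), 0.67 without null replicate 2 and 1.26 without hemizygous replicate 2 (adjusted p = 0.0486). The null miR-96 shift rests on 17 and 12 reads of miR-96-3p, against 28 and 91 in the wild-type libraries. It lay between 2.01 and 3.85 with 1 library left out at a time. The other hairpins had a median of 0.22 in null cells. Against null cells the homozygous ratio was higher by 3.99 in miR-182 and 3.89 in miR-183, where 78% of hairpins were, but the difference in miR-96 was 0.99 ± 0.66 (limma adjusted p = 0.175). The hemizygous ratio was likewise higher by 3.72 and 3.64, where 78.5% of hairpins were, and in miR-96 the difference was 0.49 ± 0.66 (limma adjusted p = 0.50). For miR-96, therefore, a ratio shift passed against wild type in all 3 mutant groups, and the differences from null cells had intervals of -0.41 to 2.397 (homozygous) and -0.91 to 1.90 (hemizygous). The homozygous difference of miR-96 from null cells passed in other fits, at 0.99 with only the 4 libraries compared (limma adjusted p = 0.0193) and at 1.501 after quantile normalization (limma adjusted p = 0.0343).

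**Figure D4:**
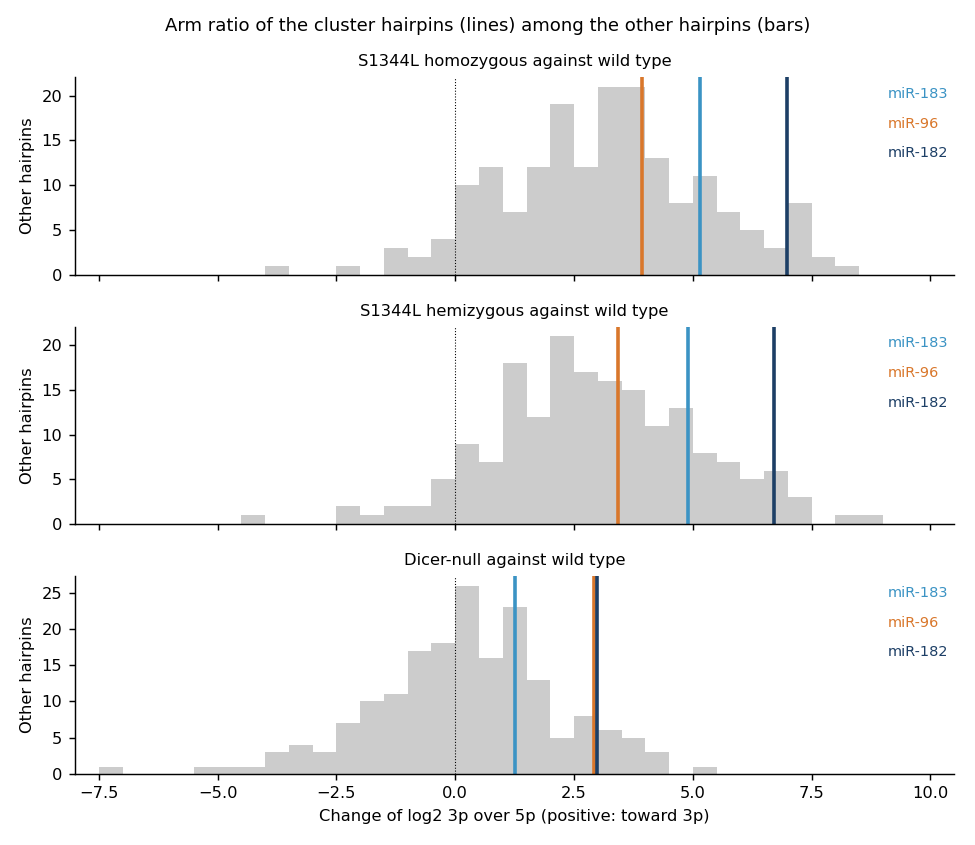
Histograms of the change of the log2 3p over 5p ratio against wild type over the other hairpins, with lines for the 3 hairpins of the cluster, in 1 panel per mutant group. In both S1344L panels the order from left to right is miR-96, miR-183, miR-182, and in null cells miR-96 and miR-182 lie together near 2.9 and 3.0.

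The makeup of the guide pool changed in every mutant group. miR-96-5p held 88.04% and 87.8% of the reads of the 3 guides in homozygous cells, 92.1% and 86.6% in hemizygous cells and 81.3% and 82.0% in null cells, against 51.9% and 50.5% in wild-type cells. miR-182-5p held 6.46% and 7.01% in homozygous cells, 4.29% and 7.08% in hemizygous cells and 11.0% and 9.11% in null cells, against 26.8% and 27.5% in wild-type cells. miR-183-5p held 5.49% and 5.17% in homozygous cells, 3.58% and 6.29% in hemizygous cells and 7.69% and 8.93% in null cells, against 21.3% and 22.0% in wild-type cells. For each guide every mutant library lay outside the wild-type pair, and the mean share of miR-96-5p was 36.7, 38.2 and 30.4 points higher in homozygous, hemizygous and null cells. All 9 comparisons of a share with wild type had p = 0.333 by an exact permutation test (two-sided), before and after Benjamini-Hochberg adjustment, and 2 libraries against 2 cannot give less.

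**Figure D5:**
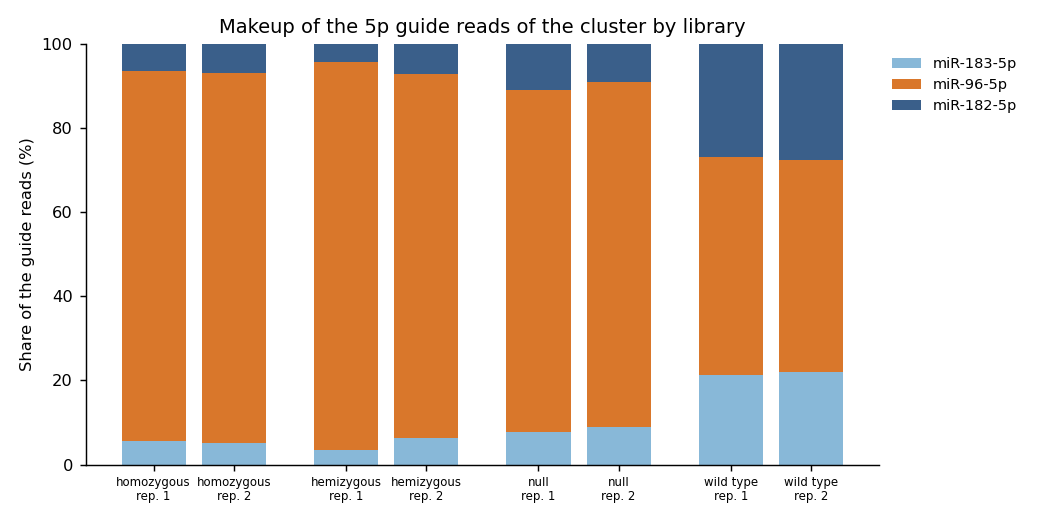
Share of miR-183-5p, miR-96-5p and miR-182-5p in the reads of the 3 guides, 1 bar per library. miR-96-5p takes between 81.3% and 92.1% in the 6 mutant libraries and 51.9% and 50.5% in the wild-type libraries.

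The ratios between guides were fitted with limma beside the 186 hairpin ratios, a test added after the shares had been seen. Reads of miR-96-5p for each read of miR-182-5p numbered 13.6 and 12.5 in homozygous, 21.5 and 12.2 in hemizygous and 7.37 and 9 in null libraries, against 1.94 and 1.83 in wild-type libraries. The log2 ratio was higher by 2.79 ± 0.39 in homozygous cells (limma adjusted p = 1.13e-05), by 3.09 ± 0.39 in hemizygous cells (limma adjusted p = 4.62e-06) and by 2.08 ± 0.39 in null cells (limma adjusted p = 0.000794). The ratio of miR-96-5p to miR-183-5p moved alike, by 2.79, 2.98 and 2.02 (limma adjusted p = 1.40e-05, 8.01e-06 and 0.00116 in homozygous, hemizygous and null cells). The ratio of miR-183-5p to miR-182-5p had differences of -0.01, 0.11 and 0.06, each ± 0.41 (limma adjusted p at least 0.813). The unequal change of miR-96-5p and the other guides was thus measured in Dicer-null cells too. Between S1344L and null cells the ratio of miR-96-5p to miR-182-5p differed by 0.71 ± 0.39 (homozygous, limma adjusted p = 0.106) and by 1.01 ± 0.39 (hemizygous, limma adjusted p = 0.0269), and the second of these was 0.61 (adjusted p = 0.168) without hemizygous replicate 1.

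Pooled by seed, the arms with bases 2 to 7 of miR-96-5p (miR-96-5p, miR-182-5p and miR-1271-5p) summed to 4886 and 3994 RPM in homozygous cells, 1864 and 4758 RPM in hemizygous cells and 485 and 737 RPM in null cells, against 16496 and 16078 RPM in wild-type cells. miR-96-5p was 88.9% and 87.9% of this pool in homozygous cells, 90.6% and 88.1% in hemizygous cells and 82.6% and 83.0% in null cells, against 64.97% and 63.8% in wild-type cells. miR-1271-5p, the seed relative on chromosome 5, had 221 and 203 RPM in homozygous cells, 96.6 and 225 RPM in hemizygous cells and 29.7 and 56.6 RPM in null cells, against 246 and 218 RPM in wild-type cells. Its log2 fold change was -0.13 ± 0.98 in homozygous cells (limma adjusted p = 0.945) and -0.65 ± 0.98 in hemizygous cells (limma adjusted p = 0.677), and it fell by 2.47 in null cells (limma adjusted p = 0.0140).

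The profiles of the guides over the 8 libraries were compared with those of 434 miRNAs outside the cluster of at least 50 RPM in wild type, by the root-mean-square distance between log2(RPM + 1) values centred on their mean. miR-183-5p and miR-182-5p were nearest to each other, at 0.140 log2 units, and no outside miRNA was nearer to either. Outside the cluster the nearest to miR-183-5p were miR-520d-5p (0.192), miR-106b-5p (0.252) and miR-140-5p (0.262). The nearest to miR-182-5p were miR-520d-5p (0.291), miR-1301-3p (0.30) and miR-484 (0.316). miR-96-5p lay 1.20 from miR-183-5p and 1.22 from miR-182-5p, and 257 and 262 outside miRNAs were nearer to it than these. Its nearest were miR-29c-3p (0.197), miR-652-5p (0.255) and miR-16-5p (0.260). The log2 fold changes in homozygous cells were -3.95 for miR-520d-5p and -1.07 for miR-29c-3p, beside -4.22 for miR-183-5p and -1.42 for miR-96-5p. The outside miRNAs were picked by distance over these same libraries, so like values follow from the choice.

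Other miRNAs were looked at for context, from lists chosen with earlier results of these data known. Of the miR-200 family, epithelial miRNAs also abundant in pluripotent cells, 7 of 9 arms were measured, and 0 passed in homozygous cells, where 32.2% of all miRNAs did (median log2 fold change 0.23, against -0.04 over all miRNAs). The most abundant, miR-141-3p, miR-200c-3p and miR-200a-3p, are 3p arms and had 0.23, 0.74 and 0.52. In hemizygous cells 1 of the 7 passed as lower, miR-429, which fell by 3.35 (limma adjusted p = 0.00351), and in null cells 6 of 7 passed as lower, where 87.2% of all miRNAs did. Of the miRNAs encoded nearby in 7q32 (miR-335, miR-29a, miR-29b, miR-129 and miR-593), 6 of 10 arms were measured, and in homozygous cells 1 passed. This was miR-335-5p, which fell by 2.91 (limma adjusted p = 0.00876), while miR-335-3p had 0.51 (limma adjusted p = 0.731) and miR-29b-3p -0.67 (limma adjusted p = 0.661). In the wild-type libraries miR-335-3p was the more abundant arm, at 5388 and 5747 RPM against 1944 and 4452 RPM for miR-335-5p. In hemizygous cells miR-335-5p fell by 4.13, again the 1 member past the threshold, where 34.7% of all miRNAs passed, and in null cells 5 of 6 passed as lower, where 87.2% did.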

How the data were processed

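Per the labels' protocols, total RNA from separate cultures received spike-in RNAs and was ligated to linkers, size-selected, amplified and sequenced. The submitters' processing notes name cutadapt, limma and hg38; no source used here gives the aligner, the counting or the scaling. The authors' deposited table holds log2 RPM per library, read from the values as whole reads plus 0.5 over 1 denominator per library (largest distance from a whole read 7.31e-09). Whether reads of near-identical miRNAs were split is not stated. The analysis had been planned for linear RPM, so deposited log2 values were turned back.

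Arms were tested with limma 3.58.1 (R 4.3.3) on log2(RPM + 1), as group means over all 8 libraries with a variance trend, two-sided, with Benjamini-Hochberg adjustment over 594 miRNAs and a threshold of 0.05, all of which passed a filter of 5 RPM in 2 libraries. Fold changes are on this log2 scale, errors are standard errors and errors on shares are 95% Wilson intervals. limma's prior came out as infinite, and miRNAs of like level therefore share a spread. The log2 ratio of (3p RPM + 1) to (5p RPM + 1) was tested likewise over 186 hairpins paired by name. With 2 libraries a group, the p-values of arms rest on the spread that miRNAs of like level share over all 8 libraries, the uneven hemizygous pair included. These p-values and those of the ratios speak for these samples only. The fits were also run on reads simulated from wild-type means, with known changes in the homozygous libraries. That simulation had no uneven pair and no lower null libraries, so it does not bear on the p-values given here. Sequences were matched by name for 533 of 594 miRNAs.

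The members and lists were chosen with earlier results of these data known. Named miRNAs outside the cluster are the 3 nearest in profile to each guide, those sharing bases 2 to 7 with a guide, and up to 3 of the most abundant of each list. miR-429 and miR-124-3p were named after their values were seen. Alternatives were pseudocounts of 0.5 and 5, other filters and scalings, fewer libraries, no trend, the replicate number as a block, and each library left out; voom weights on the recovered reads, the guide ratios and the seed pool were added after seeing the data.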

Additional observations from a re-analysis of the deposited data

How the results depend on the processing

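The 3p over 5p shifts of miR-182, miR-183 and miR-96 against wild type passed in both S1344L groups under every alternative, and the calls of miR-182-5p in all 3 mutant groups likewise; miR-183-5p kept its direction throughout and lost its call in homozygous cells without homozygous replicate 2. Levels depend on how libraries are scaled. In homozygous cells the median over all miRNAs was -0.04 on the deposited scale, -0.10 scaled to each library's own miRNA reads, 0.36 with median-ratio factors, 0.82 with upper-quartile scaling and 0.29 after quantile normalization; the next values follow this order of scalings. miRNAs past the threshold against wild type numbered 313, 359, 403 and 354 in homozygous cells (main 191), 312, 363, 406 and 348 in hemizygous cells (main 206) and 345, 288, 262 and 266 in null cells (main 526). Cluster arms past it numbered 5, 4, 5 and 6 in hemizygous cells (main 2), and 3 in null cells with median-ratio factors and after quantile normalization (main 5). miR-96-5p passed as lower in homozygous cells at -1.48, -1.01 and -1.19 with own reads, median-ratio factors and quantile normalization, and had -0.52 with upper-quartile scaling.

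The following changed direction, in the same order of scalings. miR-183-3p in hemizygous cells against wild type was 0.67, 1.24, 1.75 and 1.59 (main -0.06). In null cells against wild type, miR-182-3p was 0.29, 0.89, 1.37 and 0.90, miR-96-3p was 2.30, 2.89, 3.34 and 2.51, and miR-96-5p was 0.11, 0.60 and 0.0068 under the last 3. In hemizygous minus homozygous cells, miR-183-5p was 0.048, 0.16, 0.18 and 0.053, miR-96-5p was 0.24, 0.35, 0.37 and 0.31, and miR-182-5p was 0.040, 0.061 and 0.051 under the last 3. In homozygous minus null cells, miR-182-5p was -1.67, -1.81, -1.80 and -1.65, miR-183-5p was -1.73, -1.87, -1.86 and -1.74, miR-96-5p was -0.99, -1.12, -1.12 and -1.20, and miR-96-3p was -0.042 with median-ratio factors and -0.037 with upper-quartile scaling. In hemizygous minus null cells, miR-182-5p was -1.74, -1.77, -1.74 and -1.60, miR-183-5p was -1.68, -1.71, -1.68 and -1.68, miR-96-5p was -0.75, -0.77, -0.75 and -0.89, and miR-96-3p was -0.18, -0.20 and -0.18 under the first 3. The median of all miRNAs moved under the same scalings. In null cells against wild type it was -0.84, -0.23, 0.24 and -0.33 (main -4.49). In hemizygous cells against wild type it was -0.19, 0.33, 0.84 and 0.28 (main -0.89). In hemizygous minus homozygous cells it was -0.076, 0.026, 0.046 and -0.024 (main -0.85). Against null cells it was 0.36, 0.24, 0.24 and 0.27 in homozygous cells (main 3.92). The cause of the changes in direction was not tested.

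With only the 4 libraries compared, 372 miRNAs passed in homozygous and 109 in hemizygous cells against wild type, and 2 cluster arms passed in hemizygous against null cells (main 4). After quantile normalization 50 hairpins passed in null cells (main 85), and with a pseudocount of 5 RPM the share of miR-96-5p among the guides was 29.3 points higher in null cells (main 30.4). No filter gave the main values, since all miRNAs pass. Leaving out each library gave between 36 and 288 miRNAs past the threshold in homozygous, 111 and 370 in hemizygous and 449 and 547 in null cells against wild type, between 0 and 433 in hemizygous against homozygous cells, between 377 and 515 in homozygous against null cells and between 285 and 518 in hemizygous against null cells. Cluster arms past it numbered 1 to 5 in homozygous, 2 to 5 in hemizygous and 5 to 6 in null cells against wild type, 0 to 5 between the S1344L groups, 4 to 6 in homozygous against null and 2 to 6 in hemizygous against null cells. Hairpin ratios past it numbered 48 to 99 in null cells against wild type and 0 to 3 between the S1344L groups. Without hemizygous replicate 1, miR-183-3p was 0.78 in hemizygous cells against wild type, and in hemizygous minus homozygous cells the range over left-out libraries was -1.91 to 0.20 for miR-182-5p, -1.83 to 0.36 for miR-183-5p, -2.40 to 0.29 for miR-96-3p, -1.21 to 0.10 for miR-96-5p, -0.51 to 0.013 for the miR-183 ratio and -1.19 to 0.19 for the miR-96 ratio, the ends being the fits without either hemizygous library. The miR-96 ratio in hemizygous minus null cells lay between -0.20 and 1.18, and without wild-type replicate 2 miR-183-3p was 0.03 in hemizygous cells against wild type.

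The labels link libraries of the same replicate number by that number only. Across miRNAs, the differences of replicate 2 from replicate 1 had a correlation of 0.617 between hemizygous and wild-type cells. Over the other pairs of groups it was between -0.114 and 0.097. The cause of the higher value was not tested. With the replicate block 206 miRNAs passed in homozygous, 230 in hemizygous and 529 in null cells against wild type, and miR-96-5p passed in hemizygous cells (-1.98, limma adjusted p = 0.0424). Depth limits the null libraries most, where miR-183-3p had 2 and 7 reads.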
